A study of Mus musculus with 20 samples.

Results

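The data concern 10 mouse genes that interferon-gamma induces, namely the guanylate-binding proteins Gbp2, Gbp3, Gbp5 and Gbp7, the immunity-related GTPases Igtp, Irgm1 and Iigp1, the transcription factor Irf1 and the chemokines Cxcl9 and Cxcl10. They were chosen by name, with earlier results of these data known. All 10 were among the 52783 genes of the count table and passed the filter on low counts in each comparison. RNA was sequenced from female BALB/cJ mice, aged 8 to 12 weeks, that carried a mammary tumour for 21 to 26 days after 1000000 cells of 1 line had been injected into the mammary fat pad. The lines were 66cl4, which spreads from this site, and 67NR, which does not. Both belong to the 4T1 family of BALB/c mammary carcinoma lines, received no treatment here, and each tumour type stands for 1 established line in immunocompetent hosts. Each of 10 tumours, 5 per line, was dissociated and sorted into CD45+ cells, which are leukocytes, and CD45- cells, which hold the tumour cells together with fibroblasts and vessels, giving 4 groups of 5 libraries and 20 libraries in all.

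Interferon-gamma is released mainly by NK cells and T cells. It binds a receptor made of IFNGR1 and IFNGR2, which signals through the kinases JAK1 and JAK2 to promoter elements called GAS (gamma-activated sites). An early target is IRF1, which in turn binds interferon-stimulated response elements (ISRE) of a second set of genes. The GTPases of that set coat and disrupt the vacuoles of intracellular microbes, and CXCL9 and CXCL10 attract activated T cells and NK cells through the receptor CXCR3. In tumours this gene set is known as a sign of lymphocytes that make interferon-gamma close by, although several of its members also respond to type I interferon.

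Promoter windows are shown because most members were lower in 66cl4 tumours in the comparisons that follow. RefSeq windows of the GRCm38.p6 build were matched for 9 of the 10 members; Iigp1 had none. Within the 250 bases before the start, 7 of the 9 held the ISRE core GAAANNGAAA on either strand, against 3.46% of the 27025 genes with a window, and 4 held the GAS letters TTCNNNGAA, which read the same on both strands, against 8.13%. Letters matching the kappaB motif stood in 3 of the 9, against 8.23%. A match describes letters and is not a shown binding site. The 6 windows below are written 5′ to 3′ on the gene's strand, with ISRE core and GAS matches in capitals.
Gbp5, chr3:142496684-142496933, plus strand: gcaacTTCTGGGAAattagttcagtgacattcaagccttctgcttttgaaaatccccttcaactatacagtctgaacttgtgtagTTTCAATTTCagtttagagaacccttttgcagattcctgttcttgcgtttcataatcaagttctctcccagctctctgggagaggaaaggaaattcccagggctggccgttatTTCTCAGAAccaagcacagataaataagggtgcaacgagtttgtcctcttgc
Igtp, chr11:58199306-58199555, plus strand: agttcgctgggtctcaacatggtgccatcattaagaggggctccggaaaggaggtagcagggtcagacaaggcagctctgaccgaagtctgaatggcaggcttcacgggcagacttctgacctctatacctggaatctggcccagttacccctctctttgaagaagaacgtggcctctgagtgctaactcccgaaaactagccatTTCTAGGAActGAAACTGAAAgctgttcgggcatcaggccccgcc
Irgm1, chr11:48871421-48871670, minus strand: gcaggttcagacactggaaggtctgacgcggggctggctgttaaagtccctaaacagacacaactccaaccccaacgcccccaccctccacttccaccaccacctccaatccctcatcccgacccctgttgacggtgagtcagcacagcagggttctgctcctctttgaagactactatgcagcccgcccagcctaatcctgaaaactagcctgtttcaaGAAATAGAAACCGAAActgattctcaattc
Irf1, chr11:53769764-53770013, plus strand: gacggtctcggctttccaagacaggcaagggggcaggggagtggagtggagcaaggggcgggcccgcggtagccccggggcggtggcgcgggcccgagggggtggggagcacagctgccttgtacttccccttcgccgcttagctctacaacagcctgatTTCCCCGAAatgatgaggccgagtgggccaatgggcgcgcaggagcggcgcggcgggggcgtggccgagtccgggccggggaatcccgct
Cxcl9, chr5:92328080-92328329, minus strand: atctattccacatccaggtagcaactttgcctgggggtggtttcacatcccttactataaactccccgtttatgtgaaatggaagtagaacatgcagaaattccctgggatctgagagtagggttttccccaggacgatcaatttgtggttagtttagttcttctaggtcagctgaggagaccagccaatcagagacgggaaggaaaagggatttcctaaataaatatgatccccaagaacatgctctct
Cxcl10, chr5:92348890-92349139, minus strand: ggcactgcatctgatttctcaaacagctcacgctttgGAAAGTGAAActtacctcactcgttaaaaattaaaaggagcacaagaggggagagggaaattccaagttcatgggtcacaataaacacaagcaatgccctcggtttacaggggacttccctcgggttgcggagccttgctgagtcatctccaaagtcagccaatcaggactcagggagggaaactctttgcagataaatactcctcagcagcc
Gbp5 and Igtp held both kinds of letters, with 1 ISRE core and 2 GAS matches in Gbp5 and 1 of each in Igtp. Irgm1 held 2 overlapping ISRE cores, 30 to 21 and 24 to 15 bases before the start. Irf1 held a GAS match 90 to 82 bases before the start and no ISRE core. Cxcl10 held 1 ISRE core, 213 to 204 bases before the start, and 3 kappaB matches, of which 2 overlap. The Cxcl9 window held neither the ISRE core nor the GAS letters.

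Groups follow the sample titles. The 4 libraries of 66cl4 animals 5 and 6 carry a cell type label that contradicts their title, so counts were repeated without them. Ptprc, which encodes CD45, had 15890 to 28450 normalised counts in the CD45+ libraries and 10.6 to 473 in the CD45- libraries, so no library went against its title, those of animals 5 and 6 included. Normalised counts are estimated counts divided by a size factor per library, and total counts per library were 12960000 to 28080314. In the CD45- gate, summed epithelial markers (normalised counts) ranged from 6057 to 6844 for 66cl4 and from 125 to 391 for 67NR tumours. The list held Krt5, Krt8, Krt14, Krt18, Epcam and Cdh1. Most of the 66cl4 sum was Krt8, with means of 5353 in 66cl4 and 61.6 in 67NR, and Krt18, with 1149 and 58.6. Krt14 went the same way, at 15.8 and 5.44. Cdh1 (20.8 and 32.9), Epcam (12.1 and 32.8) and Krt5 (0.836 and 3.98) were low in both and had higher means in 67NR. Bulk libraries cannot tell fewer cells of a type from less RNA per cell.

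The first question was whether the interferon-gamma set differed between the immune cells of the 2 tumours. All 10 members had lower estimates in 66cl4 than in 67NR CD45+ cells. Called lower were 6 of them, also without animals 5 and 6, the chemokines Cxcl9 and Cxcl10 and the GTPases Gbp3, Gbp5, Gbp7 and Iigp1, where a call is an edgeR adjusted p under 0.05 with an absolute log2 fold change over 1. Over all 14676 genes tested, 6.82% were called lower and 5.01% higher, and no member was called higher. The members' median log2 fold change was −1.17, beside 0.0098 for all genes. In 9 of the 10, every 66cl4 library lay below every 67NR library, which held for 7.96% of all genes.

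Cxcl9, the chemokine most dependent on interferon-gamma, had 829, 916, 661, 839 and 598 normalised counts in 66cl4 CD45+ cells of animals 3, 4, 5, 6 and 7. In 67NR CD45+ cells of animals 1, 4, 5, 6 and 7 it had 2689, 5097, 2888, 2382 and 2074. The groups did not overlap, and 67NR animal 4 stood far above the others of its group. The difference was 3.92-fold, a log2 fold change of −1.97 ± 0.25 (SE, n = 5 per group, edgeR adjusted p = 0.000332). Cxcl10, its partner ligand, had 1714, 1471, 1167, 1427 and 1005 normalised counts in 66cl4, in the same order of animals, and 2986, 3018, 4237, 3996 and 4698 in 67NR. These groups did not overlap either, and here 67NR animal 4 was among the lower libraries of its group. Cxcl10 was 2.75-fold lower in 66cl4 (log2 −1.46 ± 0.17, SE, edgeR adjusted p = 0.000204).

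Among the immunity-related GTPases, Iigp1, which coats the vacuoles of parasites, had the widest gap. It had 277, 669, 230, 308 and 475 normalised counts in 66cl4 and 1442, 2072, 1682, 1616 and 1349 in 67NR CD45+ cells. Animal 4 was the highest library of both tumours, yet the 66cl4 value there was still less than that of any 67NR library. Iigp1 was 4.12-fold lower in 66cl4 (log2 −2.04 ± 0.28, SE, edgeR adjusted p = 0.000653). Igtp and Irgm1 belong to the branch that regulates the other immunity-related GTPases, and both passed the adjusted p but not the fold threshold. Irgm1 had 1054, 1383, 919, 1146 and 1052 normalised counts in 66cl4 and 1909, 2104, 2288, 2198 and 2141 in 67NR (log2 −0.92 ± 0.12, SE, edgeR adjusted p = 0.000425). Igtp ranged from 730 to 1591 in 66cl4 and from 1636 to 2628 in 67NR, so the ranges nearly met (log2 −0.89 ± 0.21, SE, edgeR adjusted p = 0.0116).

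The guanylate-binding proteins are larger GTPases of a separate family that assemble on pathogen vacuoles and membranes. Gbp5, linked to inflammasome activation, had 339, 545, 324, 337 and 360 normalised counts in 66cl4 and 735, 912, 811, 1005 and 793 in 67NR CD45+ cells. Animal 4 was again high in 66cl4, and the groups did not overlap (log2 −1.14 ± 0.16, SE, edgeR adjusted p = 0.000653). Gbp3 ranged from 242 to 386 against 780 to 1028 (log2 −1.51 ± 0.15, SE), and Gbp7 from 977 to 1754 against 2825 to 3882 (log2 −1.20 ± 0.16, SE). Gbp2 had the smallest difference of the family. It had 654, 879, 645, 851 and 645 in 66cl4 and 1202, 1590, 1191, 1243 and 1119 in 67NR, a log2 fold change of −0.78 ± 0.15 (SE, edgeR adjusted p = 0.003) that lay under the fold threshold although the groups did not overlap.

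Irf1, the transcription factor upstream of the others, was the member whose libraries overlapped. It had 965, 1286, 1312, 1018 and 1022 normalised counts in 66cl4 and 1016, 1628, 1548, 1347 and 1670 in 67NR CD45+ cells. The overlap came from 67NR animal 1 at 1016, within the 66cl4 range. The difference did not pass the test (log2 −0.35 ± 0.14, SE, edgeR adjusted p = 0.108), which does not show that the levels were alike.

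**Figure D1:**
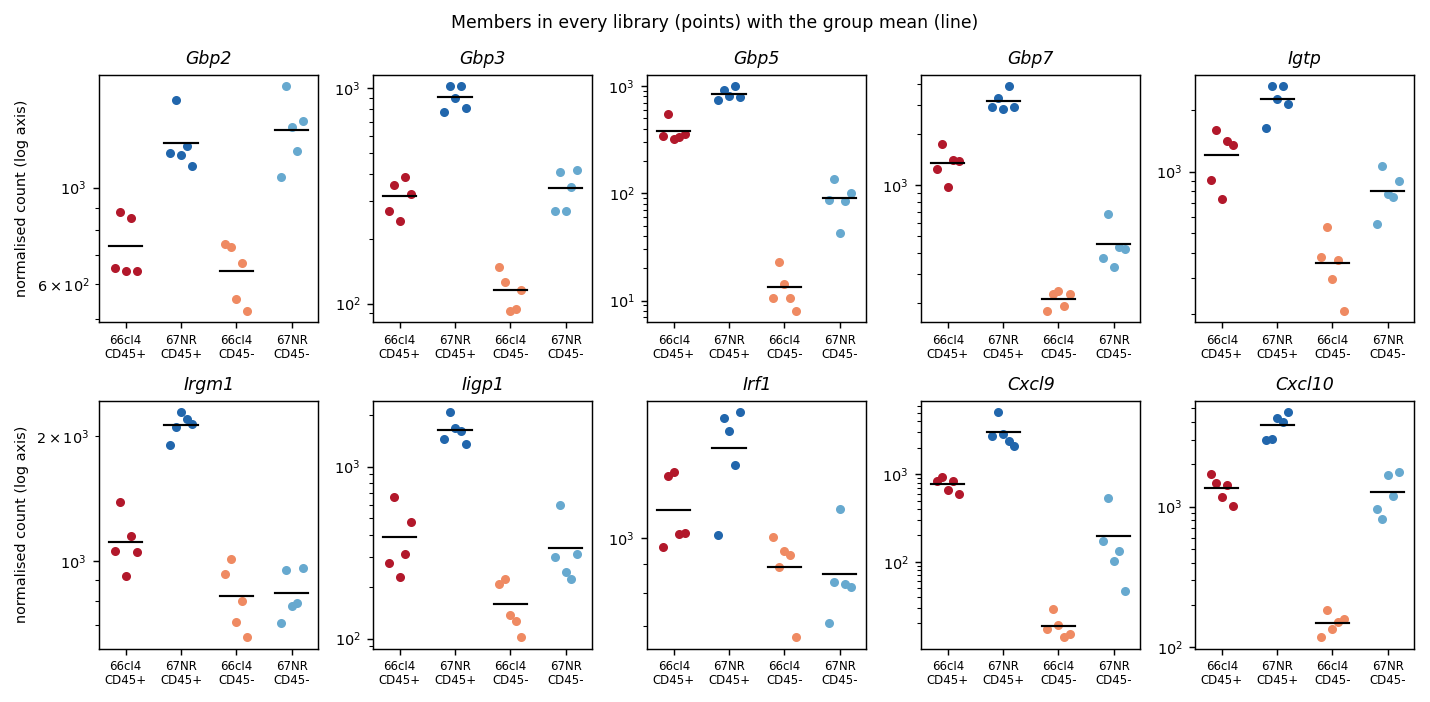
Normalised counts (vertical axes, logarithmic) of the 10 members in the 20 libraries, with the 4 groups side by side, 1 point per library from the lowest to the highest animal number and a line at the group mean. In CD45+ cells the 66cl4 points lie below the 67NR points for 9 members, and for Irf1 they overlap.

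Counts of some immune cell markers moved with the tumour in the same libraries. In CD45+ cells, NK cell markers were called lower in 66cl4 for 4 of 4 tested (Ncr1, Klrb1c, Klre1 and Eomes), with summed levels of 529 to 1946 normalised counts against 1177 to 12760 in 67NR. Klra8 was at 0 in all 5 66cl4 and in 4 of 5 67NR libraries and was not tested. Without animals 5 and 6 the count was 3, and without a filter on low counts it was 2. Of the neutrophil markers, 5 of 6 were called higher in 66cl4 (S100a8, S100a9, Csf3r, Cxcr2 and Retnlg), with sums of 43620 to 124000 against 6974 to 51120, and 2 were called without a filter, without animals 5 and 6, and without any 1 of 66cl4 animals 3 and 5 and 67NR animals 4, 5 and 6. None of 7 T cell markers was called in either direction by edgeR or DESeq2, 0 had an unadjusted p under 0.05, and their sums of 1316 to 5674 and 1505 to 5055 overlapped. Of 6 macrophage markers Adgre1 was called lower, and the count was 3 without 66cl4 animal 7, 2 without animals 5 and 6 and 0 in 1 fit of all 20 libraries. Of the dendritic cell markers Xcr1 and Batf3 were called lower and Ccr7 higher, the latter not without animals 5 and 6. None of 4 B cell markers was called in the main fit, at a median log2 fold change of 2.94. Their sums of 124 to 11650 in 66cl4 and 343 to 2411 in 67NR overlapped. DESeq2 called 1 of them higher, as did the fit without 66cl4 animal 5, and 1 fit of all 20 libraries called 3. The part of these shifts in the members' levels was not tested.

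The second question was whether the same held outside the immune cells. In CD45- cells 8 of 10 members were called lower in 66cl4 than in 67NR, and Irgm1 and Irf1 were not. Among the 14844 genes tested, 18.9% were called lower and 13.2% higher, a larger share than in the CD45+ gate, and no member was called higher. The same 8 had every 66cl4 library below every 67NR library, which held for 27.1% of all genes here. The members' median log2 fold change was −1.08, beside −0.0091 for all genes. Leaving out 1 library lowered the count to 5 of 10, for 66cl4 animal 7 and for 67NR animal 4, because estimates of Gbp2, Gbp7, Igtp and Iigp1 lay close to the fold threshold. Without 66cl4 animals 5 and 6 it was 6.

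The chemokines had the widest gaps in this gate. Cxcl10 had 118, 183, 136, 151 and 159 normalised counts in 66cl4 CD45- cells, in the order of animals given above, and 969, 813, 1679, 1184 and 1762 in 67NR. The lowest 67NR library was more than the highest 66cl4 library, and the difference was 8.34-fold (log2 −3.06 ± 0.23, SE, edgeR adjusted p = 1.31e-07). Cxcl9 had 17.3, 28.7, 19.2, 13.8 and 14.97 normalised counts in 66cl4 and 171, 539, 104, 132 and 46.0 in 67NR. The groups did not overlap, but the 67NR libraries were spread widely and animal 4 stood apart. Cxcl9 was 10.0-fold lower (log2 −3.33 ± 0.64, SE, edgeR adjusted p = 0.00102), and without 67NR animal 4 the log2 fold change was −2.53.

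Gbp5 was the GTPase with the widest gap in CD45- cells. It had 10.6, 23.1, 14.2, 10.6 and 7.99 normalised counts in 66cl4 and 86.9, 135, 43.0, 84.4 and 101 in 67NR (log2 −2.67 ± 0.34, SE, edgeR adjusted p = 8.46e-06). The 67NR libraries were spread widely, with animal 4 the highest and animal 5 the lowest, and all lay above 66cl4. Gbp2 had 743, 732, 556, 670 and 521 normalised counts in 66cl4 and 1056, 1713, 1379, 1214 and 1423 in 67NR (log2 −1.04 ± 0.14, SE, edgeR adjusted p = 1.37e-05). Gbp3 ranged from 92.4 to 147 against 270 to 419 (log2 −1.55 ± 0.17, SE), Gbp7 from 181 to 236 against 329 to 681 (log2 −1.03 ± 0.17, SE) and Igtp from 208 to 536 against 555 to 1061 (log2 −1.13 ± 0.24, SE). For Gbp7 and Igtp the highest 66cl4 library lay close to the lowest 67NR library.

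The immunity-related GTPases parted here. Iigp1 had 208, 222, 137, 126 and 102 normalised counts in 66cl4 CD45- cells and 297, 594, 245, 223 and 312 in 67NR, where animal 4 stood above the rest. The groups were separated by the narrow gap between 222 and 223 (log2 −1.04 ± 0.30, SE, edgeR adjusted p = 0.00883), and without 66cl4 animals 5 and 6 the adjusted p was 0.0671. Irgm1 had 928, 1009, 710, 801 and 653 in 66cl4 and 708, 948, 775, 789 and 961 in 67NR. These values interleaved, with a log2 fold change of 0.0058 ± 0.13 (SE, edgeR adjusted p = 0.973). Irf1 likewise interleaved, with 1007, 889, 952, 937 and 670 against 710, 838, 1125, 832 and 821 (log2 0.074 ± 0.13, SE, edgeR adjusted p = 0.638).

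**Figure D2:**
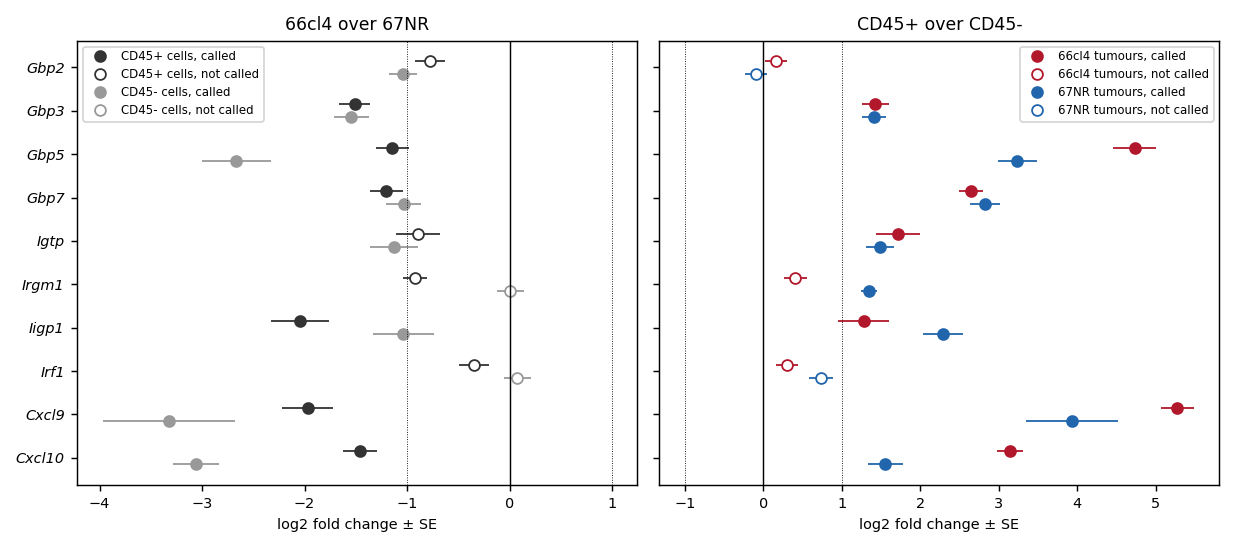
Log2 fold change with its SE (horizontal axes) of the 10 members, 66cl4 over 67NR in each gate on the left and CD45+ over CD45- in each tumour on the right. Filled points were called, and dotted lines mark the fold threshold. Cxcl10 and Gbp5 lie further to the left in CD45- than in CD45+ cells, and Irgm1 lies at −0.92 in CD45+ and at 0.0058 in CD45- cells.

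Whether the tumour effect was of the same size in the 2 gates was tested with an interaction term in a fit of the 20 libraries. It was called for 3 of 10 members at an edgeR adjusted p under 0.05. Of 16453 genes, 21.9% were called with a positive and 21.2% with a negative difference, so the members' share did not exceed that of all genes. For Cxcl10 the log2 fold change was 1.60 ± 0.29 (SE) less negative in CD45+ than in CD45- cells (edgeR adjusted p = 0.000164), and for Gbp5 1.51 ± 0.37 (SE, edgeR adjusted p = 0.00266). For Irgm1 it went the other way, with a difference of −0.92 ± 0.18 (SE, edgeR adjusted p = 0.000486). With the animal as a block, which pairs the 2 gates of a tumour, 5 members were called, with Iigp1 (−1.12, edgeR adjusted p = 0.0183) and Cxcl9 (1.04, edgeR adjusted p = 0.0471) joining. Without the block Iigp1 stood at −0.996 (edgeR adjusted p = 0.0664) and Cxcl9 at 1.37 (edgeR adjusted p = 0.0973). When 67NR animal 4 was left out of the CD45- gate, Cxcl9 stood at 0.46. Leaving out the CD45+ library of 66cl4 animal 4 also gave 5 calls.

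Levels were also compared between the 2 gates of the same tumour. They are relative to each library, so they do not give the amount of RNA in each compartment. In 66cl4 tumours 7 of 10 members were called higher in CD45+ than in CD45- cells and in 67NR tumours 8 of 10, with Irgm1 as the additional gene. The SE and p-values of this comparison come from a fit that did not pair the gates. With the animal as a block the counts were also 7 and 8. Of all genes, 23.9% were called higher and 20.5% lower in 66cl4 tumours, and 20.2% higher and 19.6% lower in 67NR tumours. No member was called lower in CD45+ cells. The median log2 fold changes were 1.57 and 1.52, beside 0.0031 and −0.049 for all genes. In every one of the 10 animals the CD45+ library exceeded its CD45- partner for 8 members, all but Gbp2 and Irf1. The share of all genes for which this held was not counted, so this count describes the members only.

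Cxcl9 had the widest gap between the gates, 38.6-fold higher in CD45+ cells in 66cl4 (log2 5.27 ± 0.21, SE, edgeR adjusted p = 1.55e-09) and 15.3-fold in 67NR tumours (log2 3.94 ± 0.59, SE, edgeR adjusted p = 0.000113). When 67NR animal 4 was left out of the CD45- gate, the latter log2 fold change was 4.72. Gbp5 came next, with 26.6-fold and 9.43-fold. Cxcl10 differed between the tumours in this respect, at 8.84-fold in 66cl4 (log2 3.14 ± 0.17, SE) and 2.94-fold in 67NR (log2 1.56 ± 0.23, SE), which is the interaction given above seen from the other side. Gbp7 was 6.25-fold and 7.07-fold higher, Gbp3 2.69-fold and 2.65-fold, Igtp 3.28-fold and 2.80-fold, and Iigp1 2.42-fold and 4.89-fold. At the other end, Gbp2 had nearly equal levels in the gates, with log2 fold changes of 0.16 ± 0.14 (SE, edgeR adjusted p = 0.328) and −0.094 ± 0.14 (SE, edgeR adjusted p = 0.585), and was higher in CD45+ cells in 4 of 5 66cl4 and 2 of 5 67NR animals. Irf1 had 0.30 ± 0.14 (SE, edgeR adjusted p = 0.0618) in 66cl4 and 0.73 ± 0.16 (SE, edgeR adjusted p = 0.00131) in 67NR tumours, in the latter under the fold threshold.

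Leukocyte RNA left in the CD45- gate gives a scale for these levels. The CD45- level of 35 leukocyte and immune cell markers had a median of 0.65% of the CD45+ level in 66cl4 tumours, and 36 markers had a median of 1.81% in 67NR tumours. As ratios of the group means, the 6 general leukocyte markers, Ptprc among them, reached at most 0.873% and 2.34%. In single animals these markers reached 1.45% and 4.4%, and macrophage markers reached 3.57% and 7.11%. Cxcl9 in CD45- cells reached 2.44% of its CD45+ level in 66cl4 and 6.56% in 67NR tumours, and Gbp5 3.49% and 10.6%. Those are the lowest shares of the 10 members. As ratios of means they lie above the 6 general leukocyte markers of the same tumour. Over single animals Cxcl9 ranged from 1.65 to 3.13% in 66cl4 and from 2.22 to 10.6% in 67NR tumours. Gbp5 ranged from 2.22 to 4.37% and from 5.31 to 14.8%. These ranges overlapped the shares that macrophage markers reached in single animals. Over all the immune markers the shares ranged from 0.155 to 112% in 66cl4, where Eomes was the highest, and from 0 to 35.4% in 67NR tumours, where Cxcr2 (35.4%) and Zbtb46 (13.4%) lay above both Cxcl9 and Gbp5. Cxcl10 ranged from 6.89 to 15.8% and from 26.9 to 39.6% over the animals, and Gbp7 was at 15.7% and 14.1% as a ratio of the group means. The remaining members were at 20.5% or more, with Gbp2 at 87.7% and 107%. General leukocyte markers were themselves lower in 66cl4 than in 67NR CD45- cells, with a median log2 fold change of −1.23 and 3 of 6 called lower, in the same direction as the members in that gate. Their count was 1 with the number as a block, without a filter, and without any 1 of 66cl4 animals 4 and 6 and 67NR animals 1, 4 and 6. Macrophage markers had a median log2 fold change of −1.67 in CD45- cells, with 2 of 6 called lower. Their count was 6 without 66cl4 animals 5 and 6 and 0 with the number as a block. Of 5 neutrophil markers tested in CD45- cells, 2 were called lower. The T cell and dendritic cell lists had 1 each called lower, and the NK cell and B cell lists 1 each called higher. Endothelial markers were also lower there, with 4 of 5 called (Kdr, Pecam1, Tek and Emcn, log2 −3.70 to −2.07) and sums of 517 to 1031 normalised counts against 1033 to 4114. Of 6 fibroblast markers 3 were called lower (Fap, Lum and Dcn, log2 −3.44 to −1.02). Without 66cl4 animals 5 and 6 Dcn lost its call (log2 −0.696). Pdgfra, with means of 4441 in 66cl4 and 2953 in 67NR, and Col1a2, with 1195 and 940, went the other way without a call. The sums of 7166 to 11100 and 7840 to 12820 overlapped. The part of these markers in the members' differences was not tested.

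**Figure D3:**
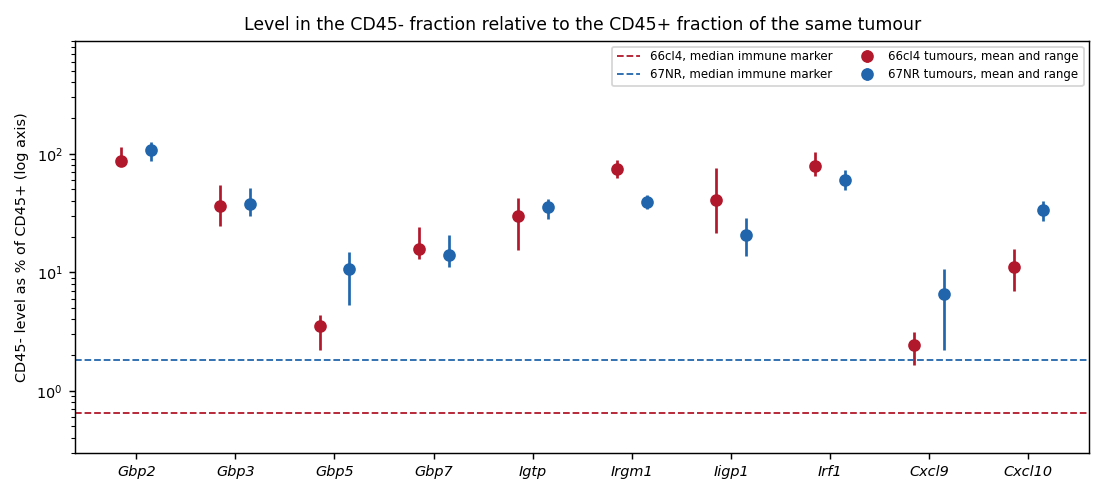
Level in the CD45- fraction as a percentage of the CD45+ fraction (vertical axis, logarithmic) for the 10 members in 66cl4 and 67NR tumours, as the ratio of the group means with the range over 5 animals. Dashed lines are the medians of the immune markers, 0.65% in 66cl4 and 1.81% in 67NR; Cxcl9 and Gbp5 lie nearest to them, and Gbp2 lies highest.

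Levels per length were compared between genes in TPM, a share of transcripts scaled by gene length and library total. In 67NR CD45+ cells Cxcl10 was the most abundant member at 243 ± 63.7 TPM (SD, n = 5), apart from Igtp at 96.5 ± 23.2 TPM, and it also led in 66cl4 CD45+ cells at 87.6 ± 20.3 TPM, where its range overlapped that of Igtp at 52.0 ± 17.7 TPM. From Igtp downward each neighbour in the CD45+ order overlapped the next, and the order closed with Gbp3 and Gbp5 at 9.27 ± 1.80 and 9.98 ± 3.22 TPM in 66cl4 and at 26.5 ± 4.90 and 21.8 ± 4.23 TPM in 67NR. In CD45- cells the order differed between the tumours. Irf1 led in 66cl4 at 34.1 ± 5.03 TPM with Irgm1 at 30.2 ± 5.09 TPM overlapping it, and Cxcl10 stood between Igtp and Iigp1 at 9.77 ± 1.55 TPM. In 67NR CD45- cells Cxcl10 led at 80.5 ± 24.1 TPM, overlapping Gbp2 at 42.2 ± 10.3 TPM. Cxcl9 and Gbp5 were the lowest in both, at 0.522 ± 0.164 and 0.348 ± 0.152 TPM in 66cl4 and 5.57 ± 5.95 and 2.34 ± 1.01 TPM in 67NR.

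The cytokine itself followed the direction of its targets. Ifng had 40.3, 58.3, 25.1, 37.9 and 68.5 normalised counts in 66cl4 CD45+ cells and 108, 301, 443, 528 and 617 in 67NR. All 66cl4 libraries lay below those of 67NR, in which animal 1 was the lowest (log2 −3.08 ± 0.43, SE, edgeR adjusted p = 0.000769). The call held under 17 of 17 alternatives, with adjusted p of 6.18e-13 to 0.0125. In CD45- cells Ifng was at 0 in 3 of 5 66cl4 libraries with 2.00 as the highest value, and at 12.3 to 24.6 in 67NR. Of the 12 genes of interferon-gamma supply and signalling, Ifng was the 1 called lower in CD45+ cells and none was called higher. The receptor chains Ifngr1 and Ifngr2 had log2 fold changes of −0.042 ± 0.14 and 0.29 ± 0.12 (SE) in CD45+ cells. In CD45- cells Nlrc5, a transactivator of MHC class I genes, was called lower together with Ifng (log2 −5.90), and Ifngr2 was called higher (log2 1.04, and 0.998 with the number as a block, under the fold threshold).

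Upstream of the cytokine, 4 of 9 inducers of interferon-gamma were called lower in 66cl4 CD45+ cells and none higher. These were Tbx21, the T-bet factor of type 1 lymphocytes (log2 −2.26), both IL-12 receptor chains Il12rb1 (−1.57) and Il12rb2 (−1.55), and Il27, a cytokine of myeloid cells (−1.18). Without 66cl4 animals 5 and 6, 0 of the 9 were called, with adjusted p of 0.0786 to 0.121 for these 4 and log2 fold changes of −2.20 to −1.04. Without a filter on low counts 2 were called. Among the CD45- cells 4 inducers could be tested, of which 3 were called lower (Il12a, Stat4 and Il18, log2 −3.64, −1.76 and −1.38) and 1 higher (Il12rb1, log2 2.12). DESeq2, and edgeR without a filter, called 6 lower, and 1 fit of all 20 libraries called 5. On the chemokine axis, Cxcl11, the third CXCR3 ligand, was called lower in CD45+ cells, with 195 to 549 normalised counts against 680 to 1209 (log2 −1.47 ± 0.25, SE, edgeR adjusted p = 0.00176). The receptor Cxcr3 was also called lower there (log2 −1.06 ± 0.34, SE, edgeR adjusted p = 0.0432), although the groups overlapped at 107 to 301 against 192 to 770, and this call was lost in 8 of 10 fits that left out 1 library and without animals 5 and 6 (adjusted p = 0.159). Dpp4, which trims these chemokines, had a log2 fold change of −0.06. In CD45- cells Cxcl11 had a log2 fold change of −0.37 ± 0.38 (SE, edgeR adjusted p = 0.401), Dpp4 was called lower (−1.91), and Cxcr3, at 28.95 normalised counts or less, was called higher (1.90, edgeR adjusted p = 0.107 with the number as a block).

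Of 14 further interferon-inducible GTPases that could be tested, 11 were called lower in 66cl4 CD45+ cells and none higher. Their median log2 fold change was −1.42. Without 66cl4 animals 5 and 6 the count was 7. The largest were Gm4951 (−2.54), Gbp6 (−1.81), Gbp10 (−1.78), F830016B08Rik (−1.76), Gbp8 (−1.76) and Gbp11 (−1.68). In CD45- cells 4 of the 14 were called lower and none higher, with a median of −0.40, and the fourth, Gbp11 (−1.005), lost its call in 6 of 10 fits that left out 1 library. Gm12250 (−2.21), Irgm2 (−1.33) and Gbp2b (−1.33) lay furthest below 0, and Gbp6, at 0.61 ± 0.24 (SE, edgeR adjusted p = 0.0403), had an estimate above 0. The interaction was called negative for 6 of these 14 and positive for none. Gvin1 was at 0 in all 20 libraries.

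Other interferon targets were counted in the same way. Of 9 other interferon-gamma targets tested in CD45+ cells, none was called in either direction by edgeR or DESeq2. At an unadjusted edgeR p under 0.05, 7 were lower and 1 was higher in 66cl4. Cd274 had the higher mean in 66cl4, 2934 normalised counts against 1903 in 67NR. Of the lower ones, B2m, Cd74, H2-Ab1, H2-K1, Psmb9 and Tap1 had an edgeR adjusted p under 0.05 with log2 fold changes of −0.66 to −0.98. Without 67NR animal 1 the count called lower was 2. In CD45- cells 4 of 10 were called lower, the antigen presentation genes H2-Ab1 (−2.69), Cd74 (−2.45), H2-K1 (−1.71) and B2m (−1.14), and 2 higher, Ido1 (2.84) and Psmb8 (1.98). With the number as a block 2 were called lower, since Cd74 and H2-Ab1 had edgeR adjusted p of 0.0865 and 0.093. The list of type I interferon response genes, which shares regulators with the members, had 5 of 12 called lower in CD45+ cells (Ifit3, Mx1, Irf7, Usp18 and Ifit1, log2 −1.93 to −1.23) and none higher, and without animals 5 and 6 the count was 6. In CD45- cells 6 of 12 were called lower (Ifit1, Ifit3, Mx1, Isg15, Irf7 and Usp18, log2 −3.10 to −1.14), and Ifnar2, a chain of the type I receptor, was called higher (1.65). The type I interferon gene Ifnb1 was too low to be tested.

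**Figure D4:**
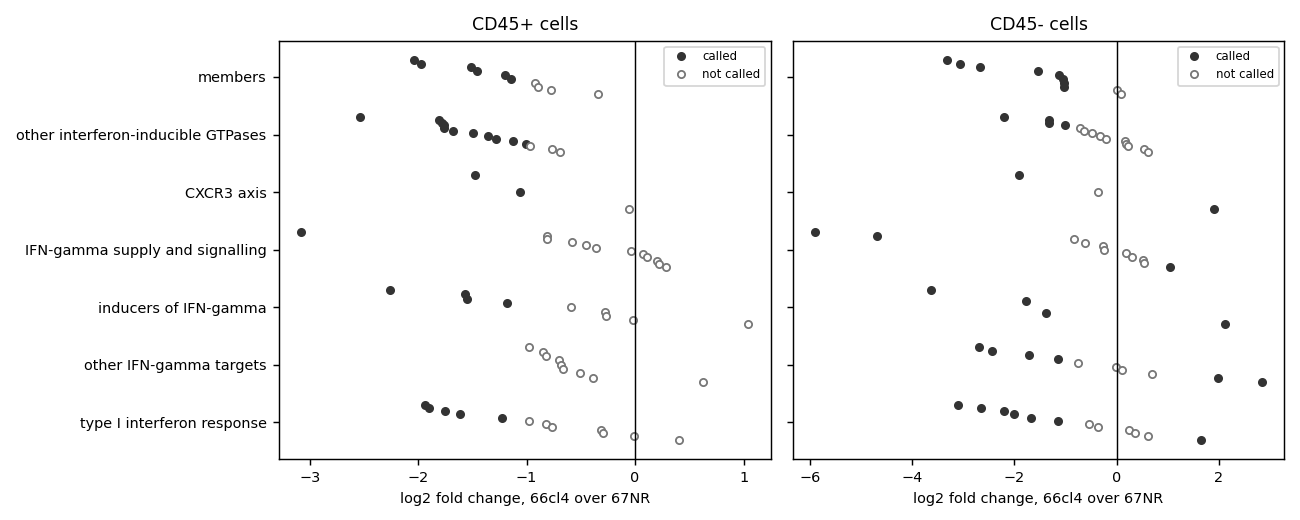
Log2 fold change of 66cl4 over 67NR (horizontal axes) in CD45+ cells on the left and CD45- cells on the right, 1 point per gene tested, for the members and 6 lists of related genes. Filled points were called. In CD45+ cells no gene of the other interferon-gamma targets was called and the called genes of the other rows lie below 0, and in CD45- cells called genes lie on both sides in the lists outside the GTPases.

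Genes outside the lists whose profile was most like that of the members were found by the mean absolute difference in centred log2 CPM (counts scaled to the library total) from the members' mean profile over the 20 libraries, out of 16453 genes. The nearest were Slfn8 (0.282), a schlafen family gene, Trim30a (0.308), a tripartite motif gene, H2-T23 (0.315), a non-classical MHC class I gene, 1600014C10Rik (0.317) and Gprc5c (0.318), an orphan receptor. Igtp (0.279) and Gbp3 (0.298) were the members closest to their own mean, and Cxcl9 (1.45) was the farthest, at rank 11588 of the 16453 genes. Gbp5, Gbp2 and Irf1 stood at ranks 4279, 4268 and 1830, so the mean is not a profile that all members share. Slfn8 had 1079 ± 383 and 1844 ± 322 normalised counts (SD, n = 5) in 66cl4 and 67NR CD45+ cells, and 145 ± 16.4 and 477 ± 54.5 in CD45- cells.

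Animals shifted several members at once within a group. Animal 4 was the highest 66cl4 library for 7 of 10 members in CD45+ and 6 in CD45- cells, and the 67NR animal numbered 4, a different mouse, was the highest for 6 in CD45- cells. In 67NR tumours animal 1 was the lowest for 6 members in CD45+ and 5 in CD45- cells. It also had the lowest Ifng and summed T cell markers, 1505 normalised counts, of the 67NR CD45+ libraries. Other animals did not follow this pattern. In 66cl4 CD45+ cells animal 7 had the highest Ifng, 68.5, and T cell marker sum, 5674, but was the highest for 0 members and the lowest for 3. In 67NR CD45+ cells animal 7 had the highest Ifng, 617, and was the highest for 2 members and the lowest for 3. A link of Ifng or T cell markers to the members' levels was not tested. Members of a family share similar sequence, and the authors' estimation divides reads among such genes. Values were not whole in 20 of 20 libraries for Gbp2, Gbp3, Gbp7 and Igtp. This held in 13, 12, 15 and 18 for Gbp5, Irgm1, Iigp1 and Cxcl9, and in 5 for Irf1 and Cxcl10. Such division leaves counts uncertain by an amount that was not measured, and the source of the fractions was not tested.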

How the data were processed

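RNA of FACS-sorted CD45+ and CD45- cells was sequenced from SENSE mRNA-Seq libraries. The authors trimmed reads with fastp and deposited estimated counts per gene, made with Salmon 1.3.0 and tximport, with no normalisation. The methods and the submitters' processing notes name GRCh38, a human reference, whereas the identifiers are of mouse genes, so only RefSeq promoter coordinates are given. The estimates were rounded to integers, a shift of at most 0.5 per value. Symbols matched 51492 of 52783 identifiers.

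Groups were compared in R 4.3.3 with edgeR 4.0.16 (quasi-likelihood test, TMM, filter by group with a minimum count of 10, robust fit, Benjamini-Hochberg adjustment over all genes tested), using the libraries compared, and all 20 for the interaction. SE is the log2 fold change divided by the square root of the F statistic. Calls required an adjusted p below 0.05 together with a log2 fold change beyond 1 in either direction, and for the interaction the adjusted p alone. Levels were divided by size factors of DESeq2 1.42.0. TPM used the median length of GENCODE M21 basic transcripts; genes without a length held 2.58% of counts. The tests were tried on simulated data. Total counts were 12960000 to 28080314 per library, and p-values rest on the spread of 5 animals per group.

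The members and lists were chosen with earlier results of these data known. Named are the members, up to 6 genes per pathway list and gate called between the tumours, Ifng, Ifngr1, Ifngr2, Cxcr3, Cxcl11, Ptprc, the 5 nearest profiles and marker genes behind counts. Genes outside this rule (Gbp6, Pdgfra and Col1a2 in CD45- cells, Tap1, Psmb9, Ifnb1 and Gvin1, and B2m, Cd74, Cd274, H2-Ab1, H2-K1 and Dpp4 in CD45+ cells) were named after their values were seen. Both gates of a tumour come from 1 animal, which pairs them. After subtraction of group means, the paired libraries correlated at 0.0251 to 0.148 (66cl4) and −0.00326 to 0.324 (67NR). Between tumours animals share only a number. The alternatives tried were the Wald test of DESeq2, RLE in place of TMM, unfiltered genes, a filter of 10 counts in 5 libraries, the replicate number as a block, 1 fit of all 20 libraries, leaving out 66cl4 animals 5 and 6, leaving out each library, CPM with TMM library sizes, and the longest transcript for TPM. One gene of the rule is not reported here.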

Additional observations from a re-analysis of the deposited data

Results flagged for a closer look

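Of 40 groups of 5 libraries examined for the 10 members, 6 held a library far from the other 4 by Dixon's criterion, which chance gives in about 1 in 20 groups. The members share libraries, so these groups are not independent and no expected number is given. Animal 4 was the library in each case. In 67NR CD45+ cells it had 1590 normalised counts of Gbp2 beside 1120 to 1240 in the others, and 5100 of Cxcl9 beside 2070 to 2890. In 67NR CD45- cells it had 681 of Gbp7 beside 329 to 430, 594 of Iigp1 beside 223 to 312, and 539 of Cxcl9 beside 46.0 to 171. In 66cl4 CD45+ cells, the mouse numbered 4 had 545 of Gbp5 beside 324 to 360. The 67NR library of CD45- cells concerned also had the highest Ptprc of its group, 473 normalised counts, and summed T cell markers of 119. Its level of the macrophage marker Adgre1 was 392, beside 91.0 to 134 in the others of its group. The part of these markers in the members' values was not tested.

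The tumour effect differed between the gates, by edgeR's interaction test, for Gbp5 (log2 1.51, adjusted p = 0.00266), Irgm1 (log2 −0.92, adjusted p = 0.000486) and Cxcl10 (log2 1.60, adjusted p = 0.000164). In 66cl4 tumours Cxcl10 and Gbp5 lay further below 67NR in CD45- than in CD45+ cells, and Irgm1 lay further below it in CD45+ cells. The same test called 21.9% of all genes with a positive and 21.2% with a negative difference.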

How the results depend on the processing

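Counts of members called stayed within 1.5 times under the alternatives named in the methods, with these exceptions. In CD45- cells between the tumours, leaving out 1 library gave 5 to 8 members, with 5 without 66cl4 animal 7 or 67NR animal 4. For the interaction the animal block gave 5 in place of 3, and leaving out 1 library gave 3 to 5. The counts of all genes called stayed within 1.5 times in each comparison. Estimates close to 0 changed sign. Irgm1 between the tumours in CD45- cells, at 0.0058, had −0.0048 with DESeq2, −0.017 with RLE factors and −0.11 with the number as a block, and −0.075 to 0.091 without 1 library. Irf1 there had −0.034 with the block. Gbp2 between the gates of 67NR tumours had −0.19 to 0.012 without 1 library. In the interaction, Gbp3, at 0.040, had −0.019 without a filter, −0.062 with 10 counts in 5 libraries, −0.069 without 66cl4 animals 5 and 6 and −0.14 to 0.099 without 1 library, and Gbp7 had 0.015 without these animals. Of the members' log2 fold changes under alternatives, 874 kept direction and side of the thresholds, 16 lost a call, 16 gained one and 24 changed sign. The number as a block, which pairs no animals between tumours, removed the call of 1 member between the tumours, Gbp7 in CD45- cells (log2 −0.996), and among the pathway genes those of Ifngr2, Cxcr3, Cd74 and H2-Ab1 in CD45- cells. With the longest transcript, Gbp7 in 66cl4 CD45- cells had 3.39 in place of 4.22 TPM, beyond its SD. Counts under about 20, as for Gbp5 and Cxcl9 in 66cl4 CD45- cells, limit the precision of their fold changes.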
